A study of Mus musculus with 8 samples.

Results

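The 10 genes described here carry phosphate or magnesium across kidney tubule cells or take part in the control of that transport: Slc34a1, Slc34a3, Slc20a1, Slc20a2, Trpm6, Cldn16, Cldn19, Cnnm2, Egf and Umod. They were taken by gene name from the array annotation, with all their probes, which gave 16 probes for the 10 genes out of 56601 probes with 36824 gene names on the array. Whole-kidney RNA came from 8 male mice aged 20 weeks, each hybridised to its own Agilent array with 1 dye, in 4 groups of 2 mice. The mimic group was db/db mice (strain label C57BLKS/J Iar -+Leprdb/+Leprdb) given nanoparticles, labelled PEI, that carried a mimic of miR-181b-5p. The control miRNA group was db/db mice of that strain given PEI nanoparticles with a control miRNA. The untreated db/db group was mice of that strain given nothing, and the normal group was C57BLKS/J Iar -m+/m+ mice. The db mutation disables the long form of the leptin receptor in every cell of the animal, so obesity, diabetes and kidney changes come together in this model. The sources used here give neither dose, route nor schedule of the nanoparticles, and no group of normal mice given nanoparticles was analysed here. The design asks what diabetes does to kidney expression, and what the mimic does beyond the control miRNA.

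Phosphate filtered at the glomerulus is taken back in the proximal tubule by sodium-phosphate cotransporters in the apical membrane, chiefly NaPi-IIa (Slc34a1) and NaPi-IIc (Slc34a3). Parathyroid hormone and FGF23 remove these carriers from the membrane, and FGF23 needs the co-receptor Klotho to act on the kidney. Magnesium takes a different route: most of it passes between the cells of the thick ascending limb through pores built by claudin-16 and claudin-19, and the final amount is set in the distal convoluted tubule, where the channel TRPM6 admits it. Epidermal growth factor (Egf) stimulates TRPM6, and uromodulin (Umod), the most abundant protein of normal urine, is made in the thick ascending limb and has been reported to raise TRPM6 at the cell surface.

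The sequences below were chosen because they carry the readout: the probes of the magnesium genes, of the lower-level Slc34a3 reading, and the administered miRNA. Each probe is a 60-base sense sequence read from the array files, with its mm9 position from the array annotation, and each can be read without a stop codon in at least 1 of the 3 frames. The probe of Slc34a3 lies at chr2:25086307-25086366 on the minus strand, that of Trpm6 at chr19:18952126-18952185, that of Cldn16 at chr16:26474305-26474364 and that of Cldn19 at chr4:118929768-118929827, the last 3 on the plus strand. The miRNA is the RefSeq mature sequence, encoded on the plus strand at chr1:137966650-137966673 and chr2:38853845-38853868 of GRCm38.p6, with its seed (bases 2 to 8) in capitals. No gene model of the mm9 build was used, so exon and UTR positions of the probes are not stated.
Slc34a3: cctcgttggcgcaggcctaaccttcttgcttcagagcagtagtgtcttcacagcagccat
Trpm6: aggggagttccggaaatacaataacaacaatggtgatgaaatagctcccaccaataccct
Cldn16: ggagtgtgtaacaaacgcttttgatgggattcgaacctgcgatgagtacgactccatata
Cldn19: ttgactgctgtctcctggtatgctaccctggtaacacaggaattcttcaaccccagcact
mmu-miR-181b-5p: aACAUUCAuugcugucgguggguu

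A level here is the log2 of a probe's intensity over the 75th percentile of its array, so 0 is that percentile. The levels of a gene are compared between mice for 1 probe. Probes are set side by side in the sums and medians of marker lists, in shares of such sums and where a probe is called bright or dim. All 10 genes had a probe well above background on all 8 arrays, and 14 of the 16 probes passed the filter on dim probes; the second probes of Slc20a1 and Trpm6 were well above background on none. Between 56.5% and 62.5% of spots per array were well above background and 0 were saturated, and all arrays came from 1 slide. The second row of that slide held the mice given nanoparticles and the first row all others, so row and nanoparticles cannot be told apart. Replicate arrays correlated at r = 0.976 in the mimic group, 0.994 in the control miRNA group, 0.996 in the untreated db/db group and 0.991 in the normal group, and 3463 probes lay over 2-fold apart between the 2 mimic mice, against 277 to 1022 in the other groups. Because mimic mouse 1 stands apart, differences of the mimic group in the genes named below are also given without it; counts at an unadjusted p and of groups that do not overlap are given with it only. Kidney markers were present in every mouse: all 8 proximal tubule markers, all 7 thick ascending limb markers and all 6 distal convoluted tubule markers were well above background on all arrays, while 2 of 4 adrenal cortex markers were below it on each. In whole kidney, fewer cells of a type and less RNA per cell cannot be told apart.

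**Figure D1:**
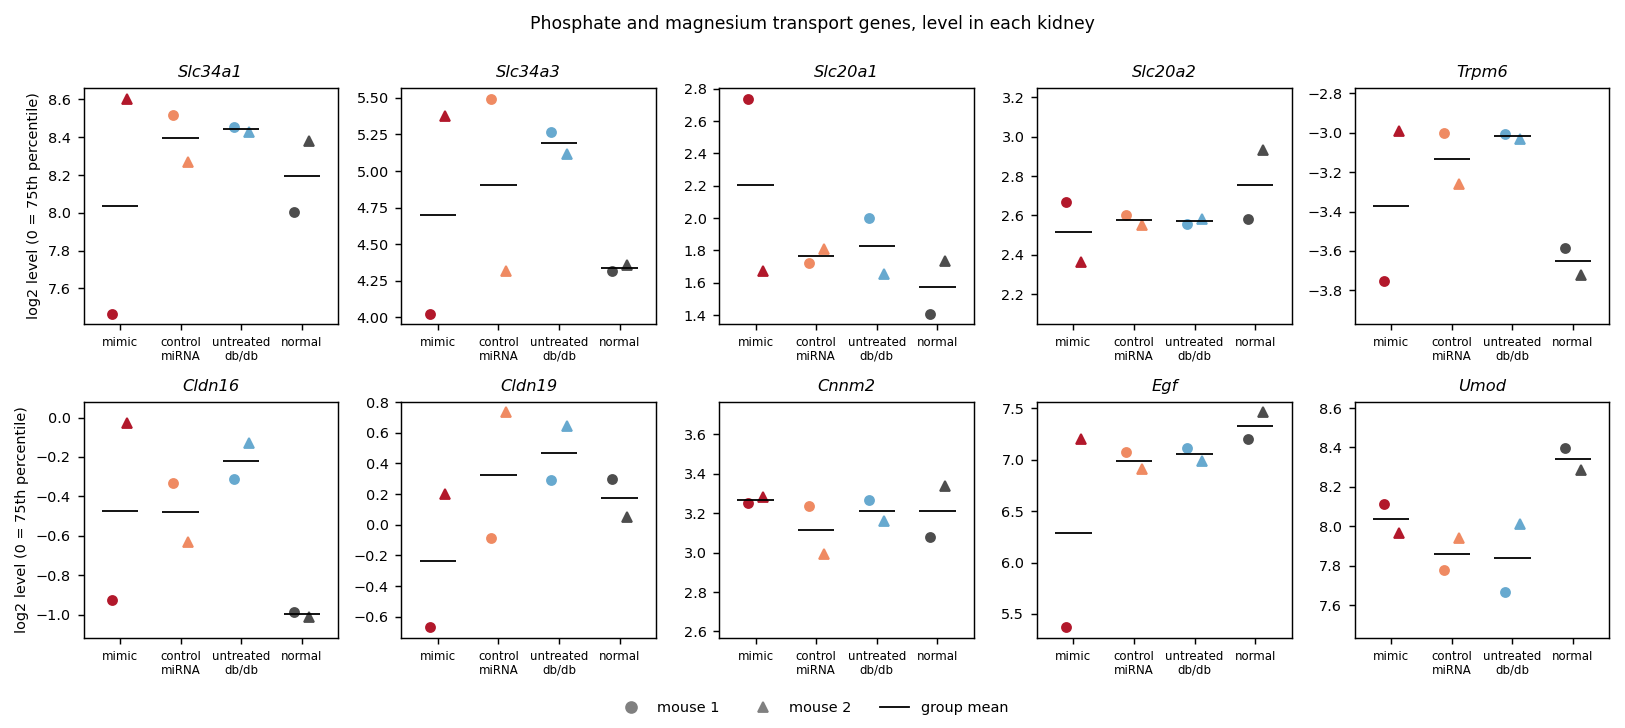
Log2 level of each of the 10 genes (y axis, 0 = the array's 75th percentile; the scale differs between panels) in every mouse of the mimic, control miRNA, untreated db/db and normal groups, left to right; circles are mouse 1, triangles mouse 2 and bars the group means. Cldn16 in all 6 db/db mice lies above both normal mice, Umod in all 6 lies below both, and mimic mouse 1 is far from mimic mouse 2 for Egf, Slc34a1, Slc34a3 and Slc20a1.

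Slc34a1 encodes NaPi-IIa, the main phosphate carrier of the mouse proximal tubule. Its level was 7.47 and 8.60 in mimic mice, 8.52 and 8.27 in control miRNA mice, 8.46 and 8.43 in untreated db/db mice and 8.00 and 8.38 in normal mice. The lowest of the 8 values is mimic mouse 1 and the highest is mimic mouse 2, so the mimic group spans the other groups. A second Slc34a1 probe was also lowest in mimic mouse 1 but not highest in mimic mouse 2, at 5.56 and 6.76 in mimic mice, 6.81 and 6.42 in control miRNA mice, 6.84 and 6.73 in untreated db/db mice and 6.01 and 6.40 in normal mice. On it, both untreated db/db mice and both control miRNA mice lay above both normal mice. The difference of untreated db/db from normal was 0.25 on the first probe (95% interval -0.62 to 1.12) and 0.58 on the second (-0.35 to 1.51), and neither passed the test (limma, Benjamini-Hochberg adjusted p = 0.699 and 0.389).

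Slc34a3 encodes NaPi-IIc, the second apical carrier of the proximal tubule. Its brighter probe read 4.03 and 5.37 in mimic mice, 5.50 and 4.32 in control miRNA mice, 5.27 and 5.12 in untreated db/db mice and 4.32 and 4.36 in normal mice. Its other probe, the one shown above, read 0.25 and 1.46 in mimic mice, 1.77 and 0.60 in control miRNA mice, 1.49 and 1.33 in untreated db/db mice and -0.28 and -0.19 in normal mice. On both probes mimic mouse 2, control miRNA mouse 1 and both untreated db/db mice were high. On the brighter probe mimic mouse 1 and control miRNA mouse 2 lay in or below the normal range, whereas on the other probe all 6 db/db mice lay above both normal mice. Untreated db/db exceeded normal by 0.85 on the brighter probe (-0.39 to 2.10; limma adjusted p = 0.344) and by 1.65 on the other (0.47 to 2.83; limma adjusted p = 0.106). The second value is the largest difference of any member probe between untreated db/db and normal kidney, a ratio of 3.13, and larger than that of 98.1% of all probes in absolute size. Fitted on the 4 arrays of the untreated db/db and normal groups alone, both probes passed (limma adjusted p = 0.0291 and 0.0119).

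**Figure D2:**
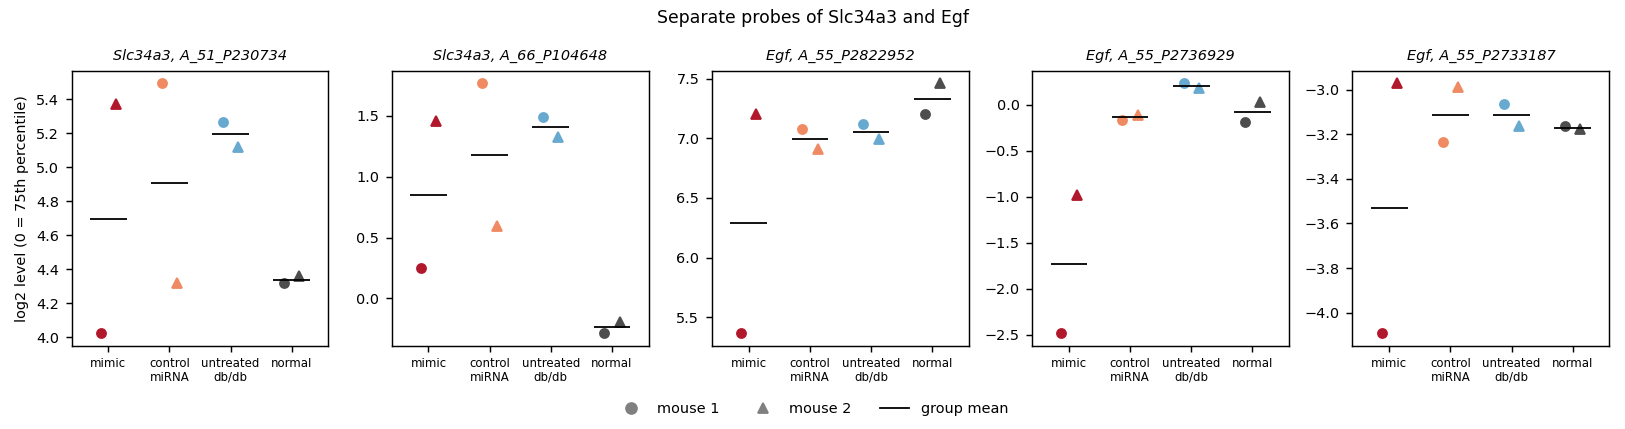
Log2 level (y axis, 0 = the array's 75th percentile; the scale differs between panels) of the separate probes of Slc34a3 and Egf in each mouse, groups from left to right mimic, control miRNA, untreated db/db and normal; circles are mouse 1, triangles mouse 2, bars group means. Both Slc34a3 probes are high in mimic mouse 2, control miRNA mouse 1 and both untreated db/db mice, but they separate the db/db from the normal mice differently, and on the middle Egf probe, A_55_P2736929, both mimic mice lie below the other 6.

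Slc20a1 (PiT-1) and Slc20a2 (PiT-2) are carriers of a second family; PiT-1 is found in most cells and PiT-2 is also in the apical membrane of the proximal tubule. Slc20a1 was 2.74 and 1.67 in mimic mice, 1.72 and 1.81 in control miRNA mice, 2.00 and 1.65 in untreated db/db mice and 1.41 and 1.73 in normal mice. Mimic mouse 1 alone was high, the opposite of its position for Slc34a1 and Slc34a3. Slc20a2 was 2.67 and 2.36 in mimic mice, 2.60 and 2.55 in control miRNA mice, 2.55 and 2.58 in untreated db/db mice and 2.58 and 2.93 in normal mice, and each group overlapped every other. For neither gene did a db/db group differ from normal beyond the replicate error: the differences ran from 0.19 to 0.64 for Slc20a1 and from -0.24 to -0.18 for Slc20a2, and the mimic difference of Slc20a1 from normal, 0.64, was 0.10 without mimic mouse 1 (limma adjusted p = 0.788) and 1.17 without mimic mouse 2 (0.0160). That of Slc20a2 was -0.39 without mimic mouse 1 (limma adjusted p = 0.224).

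Cldn16, 1 of the 2 claudins of the magnesium pore, was -0.92 and -0.03 in mimic mice, -0.33 and -0.63 in control miRNA mice, -0.31 and -0.13 in untreated db/db mice and -0.99 and -1.01 in normal mice. All 6 db/db mice lay above both normal mice, although mimic mouse 1 did so by little. The difference from normal was 0.52 in the mimic group (-0.18 to 1.22; limma adjusted p = 0.276), 0.52 in the control miRNA group (-0.18 to 1.22; 0.350) and 0.78 in the untreated db/db group (0.08 to 1.48; 0.161), the last a ratio of 1.72. None passed with all 8 arrays. Without mimic mouse 1 the mimic difference from normal was 0.97 and passed (limma adjusted p = 0.0353). Leaving out either mimic mouse removes the mimic group's spread from the shared error, and the untreated db/db difference then passed at its same size (limma adjusted p = 0.0262).

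Cldn19, the partner of claudin-16, did not follow it. Its level was -0.67 and 0.20 in mimic mice, -0.08 and 0.73 in control miRNA mice, 0.29 and 0.64 in untreated db/db mice and 0.30 and 0.05 in normal mice. The groups overlapped except that both mimic mice lay below both untreated db/db mice, a difference of -0.70 (-1.60 to 0.20; limma adjusted p = 0.432), which was -0.26 without mimic mouse 1 (0.897).

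Trpm6, the apical magnesium channel of the distal convoluted tubule, was dim on the array, at -3.75 and -2.99 in mimic mice, -3.00 and -3.26 in control miRNA mice, -3.00 and -3.03 in untreated db/db mice and -3.58 and -3.72 in normal mice. Of the db/db mice 5 lay above both normal mice, and mimic mouse 1 lay below them. The difference from normal was 0.28 in the mimic group (-0.33 to 0.89), 0.52 in the control miRNA group (-0.09 to 1.13) and 0.63 in the untreated db/db group (0.02 to 1.24), with limma adjusted p = 0.488, 0.288 and 0.182. The mimic difference was 0.66 without mimic mouse 1 (limma adjusted p = 0.0702). Fitted on the 4 arrays of the untreated db/db and normal groups alone, the untreated db/db difference passed (limma adjusted p = 0.0479). Without either mimic mouse the untreated db/db difference was of the same size, 0.63. Among the alternatives that left out no single mouse it fell as low as 0.13, and the control miRNA difference as low as 0.08. The same 5 db/db mice were also highest in the summed level of 6 markers of the distal convoluted tubule, of which Calb1, a calcium-binding protein, made up 56% to 81.2%. The log2 of that sum was 6.14 and 7.64 in mimic mice, 7.64 and 7.25 in control miRNA mice, 7.77 and 7.56 in untreated db/db mice and 5.93 and 6.28 in normal mice. The markers did not all move with the sum: Klhl3 differed by -0.0045 between untreated db/db and normal, and Pvalb was 4.77 in control miRNA mouse 2, against 4.87 in normal mouse 2. Of these markers, 1 of 6 passed between untreated db/db and normal, Trpv5, the calcium channel of that segment, with a difference of 1.53 (limma adjusted p = 0.0341). The part of these markers in the Trpm6 values was not tested.

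Cnnm2, a protein of the basolateral membrane needed for magnesium balance in humans and mice, varied least. It was 3.25 and 3.28 in mimic mice, 3.24 and 3.00 in control miRNA mice, 3.26 and 3.16 in untreated db/db mice and 3.08 and 3.34 in normal mice. Its group means lay within 0.15 of each other, less than the gap of 0.26 between the 2 normal mice. The 95% interval of untreated db/db minus normal ran from -0.35 to 0.36.

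Egf, whose precursor is made in the thick ascending limb and distal convoluted tubule, had 3 probes. The brightest read 5.37 and 7.21 in mimic mice, 7.08 and 6.91 in control miRNA mice, 7.12 and 6.99 in untreated db/db mice and 7.20 and 7.46 in normal mice. Mimic mouse 1 was the low value, and the other 5 db/db mice lay between 6.91 and 7.21, near or below the lower of the normal mice. Probe A_55_P2736929, which the array annotation places on a separate transcript of Egf, read -2.48 and -0.98 in mimic mice, -0.17 and -0.11 in control miRNA mice, 0.23 and 0.18 in untreated db/db mice and -0.19 and 0.02 in normal mice. On this probe both mimic mice lay below all 6 others, mouse 2 included. The third probe, A_55_P2733187, read -4.09 and -2.97 in mimic mice, against a range of -3.24 to -2.99 in control miRNA, -3.16 to -3.06 in untreated db/db and -3.18 to -3.16 in normal mice, so only mimic mouse 1 was low on it.

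The mimic group differed from control miRNA by -0.70 on the brightest Egf probe (-2.00 to 0.59; limma adjusted p = 0.669), by -0.42 on A_55_P2733187 (-1.24 to 0.40; 0.688) and by -1.59 on A_55_P2736929 (-2.65 to -0.53; 0.375). The last was larger in absolute size than 98.8% of all probes, and its difference from untreated db/db was -1.94 (limma adjusted p = 0.181) and from normal -1.65 (0.0721). Without mimic mouse 1 the brightest probe turned to 0.21 against control miRNA and A_55_P2733187 to 0.14, while A_55_P2736929 was -0.84 and did not pass (limma adjusted p = 0.15). The same probe was then -1.19 against untreated db/db (limma adjusted p = 0.0716) and -0.90 against normal, which passed (0.0272). Between untreated db/db and normal the 3 probes did not share a direction, at -0.28 on the brightest, 0.29 on A_55_P2736929 and 0.06 on A_55_P2733187, and none passed.

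Umod was 8.11 and 7.96 in mimic mice, 7.78 and 7.94 in control miRNA mice, 7.67 and 8.01 in untreated db/db mice and 8.40 and 8.29 in normal mice. All 6 db/db mice lay below both normal mice, and the order of the group means was normal, mimic, control miRNA, untreated db/db. The difference from normal was -0.30 in the mimic group (-0.69 to 0.08), -0.48 in the control miRNA group (-0.87 to -0.10) and -0.50 in the untreated db/db group (-0.89 to -0.12), with limma adjusted p = 0.254, 0.157 and 0.120. The last corresponds to a ratio of 0.706 to normal, and the mimic difference was -0.38 without mimic mouse 1 (limma adjusted p = 0.259). Other markers of the thick ascending limb were mixed in untreated db/db mice, with 4 differences from normal above 0 and 3 below it (Bsnd at -0.29, Cldn10 at -0.38 and Irx1 at -0.56). The log2 of the sum of the 7 markers was 7.44 and 8.25 in mimic mice, 8.03 and 8.03 in control miRNA mice, 8.11 and 8.11 in untreated db/db mice and 7.87 and 7.86 in normal mice, and 0 of the 7 passed between untreated db/db and normal. All 6 db/db mice lay below both normal mice on 18.8% of all probes tested, and above both on 14.7%, beside which 1 member gene each, Umod and Cldn16, is what the 10 genes hold.

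**Figure D3:**
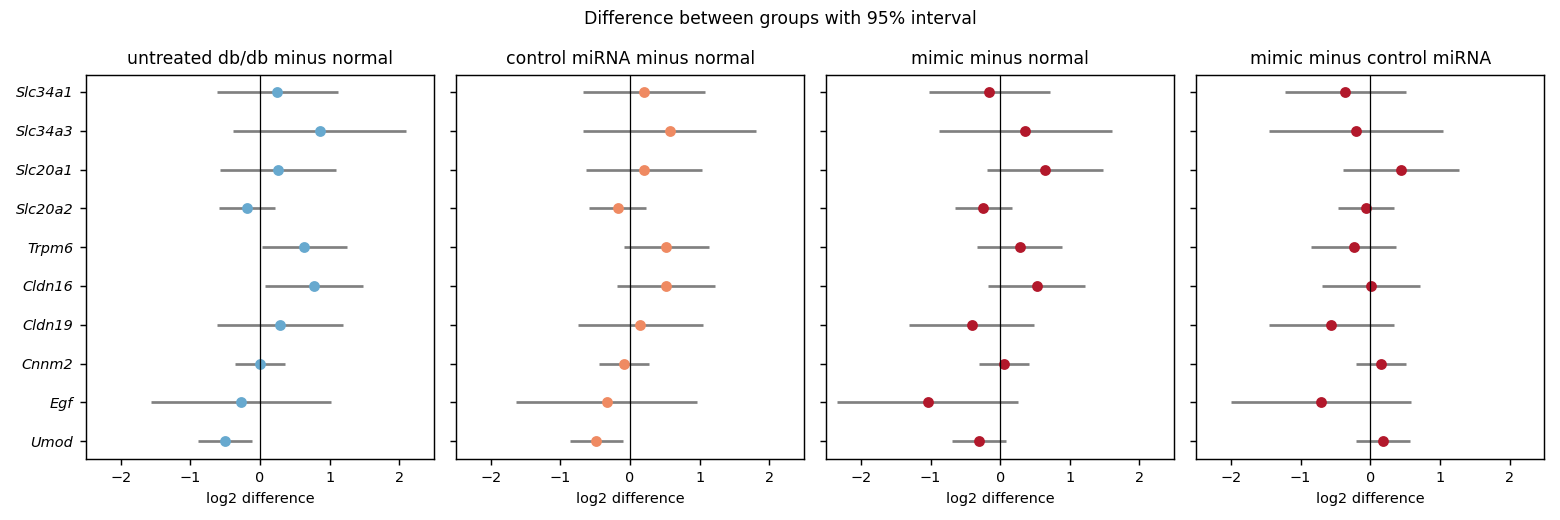
Log2 difference between groups (x axis) with its 95% interval (bars) for the 10 genes (y axis), from a limma fit to all 8 arrays. Intervals of Cldn16, Trpm6 and Umod exclude 0 between untreated db/db and normal, as does that of Umod between control miRNA and normal, and no interval does between mimic and control miRNA.

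Counted together, 0 of the 10 genes and 0 of the 14 probes tested passed an adjusted p under 0.05 in limma in any of the 6 comparisons. For untreated db/db against normal the share of all 33638 probes that passed was 3.84%. At an unadjusted p under 0.05, 3 of the 10 genes passed (Umod, Cldn16 and Trpm6), against 25.8% of all probes. The groups did not overlap for 6 of the 10 genes, against 63.6% of all probes. The median difference of the 10 genes was 0.25, against -0.02 over all probes, with 7 positive. For control miRNA against normal, 1.51% of all probes passed; 1 gene, Umod, had an unadjusted p under 0.05, against 21.9% of all probes, and 4 did not overlap (Trpm6, Cldn16, Egf and Umod), against 59.4%. For mimic against normal, 7.37% of all probes passed; 0 of the 10 genes had an unadjusted p under 0.05, against 29.4%, and 2, Cldn16 and Umod, did not overlap, against 53.4%. The 3 comparisons share the normal mice. Summed markers of other tissues also varied and separated untreated db/db from normal mice. The log2 of the summed level of 6 adipocyte markers was -0.60 and -0.39 in untreated db/db mice, against 6.04 and 2.14 in normal mice. It was 0.52 and -0.29 in mimic mice and 2.17 and -0.36 in control miRNA mice. That of 3 red cell markers was 6.98 and 7.58 in untreated db/db mice, against 2.83 and 3.84 in normal mice. In mimic mice it was 8.01 and 2.39, and in control miRNA mice 7.52 and 6.32. Of these adipocyte and red cell markers 0 passed between untreated db/db and normal. Their part in the values of the 10 genes was not tested.

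Among db/db mice, limma called 0 of all probes, which is 0% of the array, in each of the 3 comparisons between treatments. At an unadjusted p under 0.05 it called 0 of the 10 genes for mimic against control miRNA, against 9.44% of all probes, 0 for mimic against untreated db/db, against 14.3%, and 0 for control miRNA against untreated db/db, against 3.71%. The groups did not overlap for 2 genes between mimic and control miRNA (Cnnm2 and Umod, differences of 0.15 and 0.18, and 0.17 and 0.10 without mimic mouse 1), 1 gene between mimic and untreated db/db (Cldn19) and 1 between control miRNA and untreated db/db (Cldn16, -0.26), against 39.5%, 47.5% and 40.5% of all probes. The differences of mimic from control miRNA ran from -0.70 for Egf to 0.44 for Slc20a1, with a median of -0.14; without mimic mouse 1 they ran from -0.21 for Slc20a2 to 0.47 for Slc34a3. The widest interval, that of Egf, allows anything from -2.00 to 0.59, so these data do not show that mimic and control miRNA leave the 10 genes alike.

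**Figure D4:**
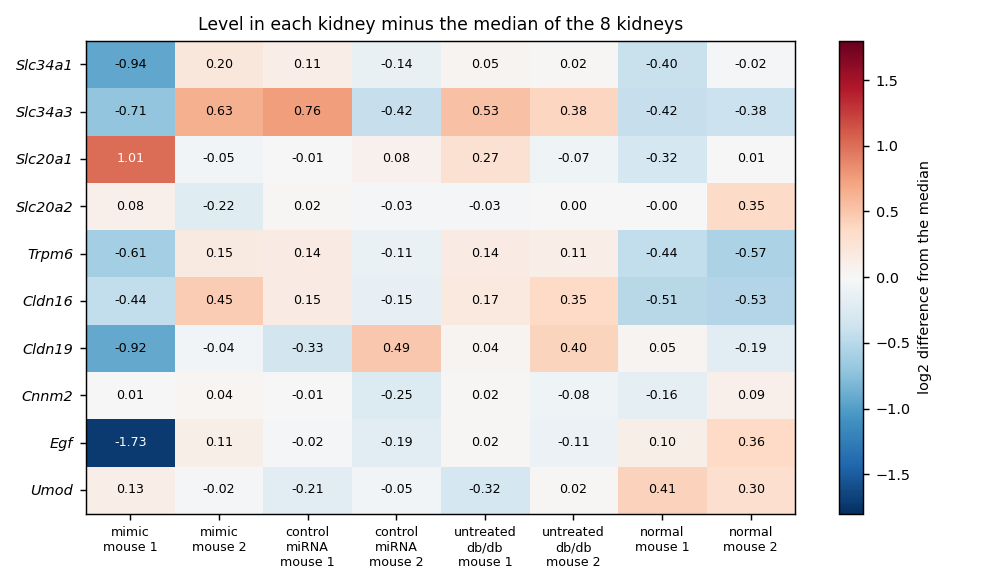
Level of each gene (rows) in each mouse (columns; mimic, control miRNA, untreated db/db and normal, left to right) minus the median of that gene over the 8 mice, on a log2 scale from blue (below) to red (above). The first column, mimic mouse 1, holds the largest departures in both directions, Egf at -1.73 and Slc20a1 at 1.01.

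Mimic mouse 1 stood outside the other 7 mice for 6 of the 10 genes. It was the lowest of the 8 mice for 5 of the 10 genes (Slc34a1, Slc34a3, Trpm6, Cldn19 and Egf), the highest for Slc20a1 and inside the range of the other 7 mice for Slc20a2, Cldn16, Cnnm2 and Umod. Over all probes tested it was lowest for 30.3% and highest for 21%. The median gap between the 2 mice of a group over the 10 genes was 0.88 in the mimic group, against 0.25 in control miRNA, 0.14 in untreated db/db and 0.25 in normal mice; over all probes these gaps were 0.29, 0.13, 0.12 and 0.21. Egf had the widest gap in the mimic group, 1.84. Markers of tubular injury were also high in this mouse. Lcn2, which encodes the urinary injury marker NGAL, was 5.50 and -0.72 in mimic mice and lay between -0.65 and 0.06 in the other 6. Havcr1, which encodes KIM-1, was 0.02 in mimic mouse 1 and at most -3.53 in the other 7 mice, 4 of which were not well above background. Spp1 made up 35.5% to 67.2% of the summed level of all 11 injury markers. The log2 of that sum was 10.36 and 8.71 in mimic mice, 8.57 and 8.34 in control miRNA mice, 8.65 and 8.44 in untreated db/db mice and 7.84 and 7.44 in normal mice. The log2 of the summed level of the proximal tubule markers was lowest in mimic mouse 1, at 9.44, against 9.99 to 10.29 in the other 7. The part of tubular injury in the values of the 10 genes was not tested.

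When mimic mouse 1 was left out, the mimic difference from normal was 0.97 for Cldn16 and -0.90 for the Egf probe A_55_P2736929. When mimic mouse 2 was left out instead, mouse 1 stood alone for the group. The difference from normal was then -1.96 for Egf and 1.17 for Slc20a1. From control miRNA it was -0.93 for Slc34a1, 0.98 for Slc20a1 and -1.62 for Egf. From untreated db/db it was -0.98 for Slc34a1, 0.91 for Slc20a1, -0.735 for Trpm6, -0.70 for Cldn16 and -1.685 for Egf. In these fits a lone mouse is assumed to vary like the mice of the other groups. Against control miRNA, Slc34a1, Slc34a3, Slc20a1, Slc20a2, Trpm6, Cldn16 and Egf each took the opposite sign with the one mimic mouse and with the other.

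Other genes of the phosphate pathway were taken from a list of 20, of which 19 were on the array under the listed name and 18 passed the filter. Between untreated db/db and normal kidney 3 rose and 1 fell, while 1.43% of all probes rose and 2.41% fell, and the median difference of the 18 was 0.07, against -0.02 over all probes. Cyp27b1, the enzyme that makes active vitamin D, was 1.56 and 1.56 in untreated db/db mice, against -1.83 and -1.34 in normal mice (difference 3.15, SE 0.41, limma adjusted p = 0.0222). Cyp24a1, which breaks active vitamin D down, was 5.32 and 4.83 in untreated db/db mice, against 1.75 and 1.59 in normal mice (3.40, SE 0.51, limma adjusted p = 0.0300). Both enzymes of vitamin D were thus higher in both untreated db/db mice than in both normal mice. Stc1, a hormone that acts on phosphate and calcium transport, rose by 1.96 (limma adjusted p = 0.0254) and Slc17a3, a proximal tubule organic anion carrier first described as a phosphate carrier, fell by 1.37 (0.0473). Leaving out any 1 of these 4 mice left 0 of the 18 passing.

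Against normal, the control miRNA group showed a rise of Cyp27b1 (3.91, limma adjusted p = 0.0182) and Stc1 (1.73, 0.0443), 2 of the 18, where 0.574% of all probes rose and 0.936% fell, while Slc17a3 (-1.26, 0.0723), Slc9a3r2 (0.47, 0.100) and Cyp24a1 (1.87, 0.110) did not pass. Neither gene that rose passed when any 1 of the control miRNA, untreated db/db or normal mice was left out. The count of 2 rose without either mimic mouse and ran from 1 to 4 in the alternatives that left out no mouse. In the mimic group Cyp27b1 (4.20, limma adjusted p = 0.00631), Stc1 (2.10, 0.0123) and Slc9a3r2, a scaffold that binds apical carriers (0.55, 0.0471), rose and Fgf23 fell by 2.79 (0.0131). In this comparison 2.74% of all probes rose and 4.63% fell. Of the list, 4 passed, against 0 with the compared groups only and 2 with array weights. It was 3 with no filter on dim probes and with the replicate block. It was 5 under normexp, with probes well above background on all 8 arrays and with 1 probe per gene. The count fell when any 1 of the control miRNA, untreated db/db or normal mice was left out and rose without either mimic mouse. Slc9a3r2 did not pass in 11 of the 17 alternatives. Without mimic mouse 1 the differences were 3.65 for Cyp27b1, 2.11 for Stc1, 0.64 for Slc9a3r2 and -2.16 for Fgf23, and all 4 passed. The Fgf23 probe holds a CA repeat, FGF23 is made mainly in bone, and the specificity of this reading in kidney was not tested. Cyp24a1 was 0.75 and 1.84 in mimic mice, against 4.19 and 2.90 in control miRNA mice, 5.32 and 4.83 in untreated db/db mice and 1.75 and 1.59 in normal mice. Both mimic mice thus lay below all other db/db mice, mimic mouse 1 below both normal mice and mimic mouse 2 just above both. The difference of mimic from untreated db/db was -3.78 (limma adjusted p = 0.116) and from control miRNA -2.25 (0.279), and neither passed. Without mimic mouse 1 they were -3.24 and -1.71 and did not pass, and without mimic mouse 2 they were -4.32 and -2.80 and passed (limma adjusted p = 0.00678 and 0.0270). Kl, which encodes Klotho, was 3.87 and 5.33 in mimic mice, against 5.72 and 5.58 in control miRNA mice, with mimic mouse 1 again low, and the difference of -1.05 did not pass (limma adjusted p = 0.527). It was -0.32 without mimic mouse 1 (limma adjusted p = 0.710) and -1.78 without mimic mouse 2 (0.00417).

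Of 20 further genes of magnesium handling, all on the array, 19 passed the filter. Between untreated db/db and normal 0 of them passed in limma; the smallest p-values belonged to Kcnj10, a basolateral potassium channel of the distal convoluted tubule (0.70, limma adjusted p = 0.0596), Mrs2, a mitochondrial magnesium channel (-0.56, 0.0679), and Slc41a3, a magnesium transporter (0.78, 0.0756). The smallest p-values for control miRNA against normal, where 0 passed, again belonged to Kcnj10, Mrs2 and Slc41a3, with differences of 0.57, -0.46 and 0.68 (limma adjusted p = 0.107, 0.120 and 0.120). Between mimic and normal 2 rose, Cnnm4, a relative of Cnnm2 (0.72, limma adjusted p = 0.0268), and Kcnj10 (0.74, 0.0415), and 1 fell, Cldn10, a claudin of the thick ascending limb that forms the sodium pore (-0.98, 0.0254). These 3 genes did not pass when any 1 of the control miRNA, untreated db/db or normal mice was left out. Nor did they with no filter on dim probes, with the compared groups only or with array weights. The count rose without either mimic mouse. Without mimic mouse 1 the differences were 0.78 for Cnnm4, 0.92 for Kcnj10 and -0.83 for Cldn10, and all 3 passed. Cldn10 was 3.89 and 4.20 in mimic mice, 4.47 and 4.65 in control miRNA mice, 4.51 and 4.79 in untreated db/db mice and 5.00 and 5.05 in normal mice, so both mimic mice were lowest and both normal mice highest. Its difference from control miRNA, -0.52, did not pass (limma adjusted p = 0.442) and was -0.37 without mimic mouse 1 (0.665). Between db/db groups 0 genes of either list passed with all 8 arrays. That 0 did not hold for mimic against the other 2 db/db groups without mimic mouse 2, where mouse 1 stood alone. The difference of mimic from control miRNA was then -0.68 for Cldn10 and 0.28 for Cnnm4.

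**Figure D5:**
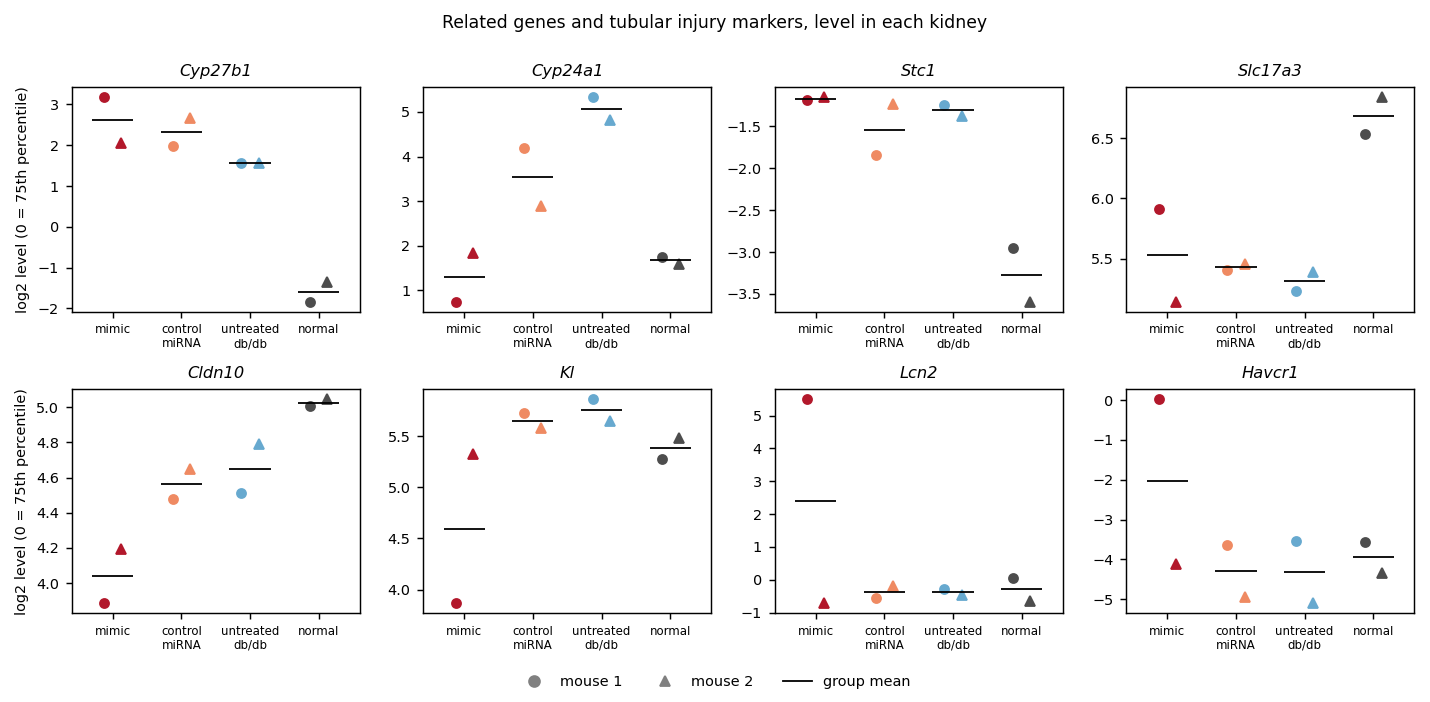
Log2 level (y axis, 0 = the array's 75th percentile; the scale differs between panels) of 6 genes of phosphate or magnesium control and of the injury markers Lcn2 and Havcr1 in each mouse, groups from left to right mimic, control miRNA, untreated db/db and normal; circles are mouse 1, triangles mouse 2, bars group means. Cyp27b1 and Stc1 are higher in all 6 db/db mice than in normal mice, Cyp24a1 is high in control miRNA and untreated db/db but not in mimic mice, and mimic mouse 1 alone is high for Lcn2 and Havcr1.

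Across the 8 mice, which share 1 array slide and include the outlying mouse, the members fell into sets by their pattern. Trpm6 and Cldn16, genes of different segments, had r = 0.95, and Slc34a3 had r = 0.91 with Trpm6 and 0.89 with Cldn16. Egf had r = 0.84 with Slc34a1 and -0.90 with Slc20a1. Over the 6 db/db mice alone, Slc34a1 had r = 0.99 with both Egf and Trpm6, and mimic mouse 1 had the lowest value of all 3. Cldn16 and Cldn19, which form the pore together, had r = 0.37 over the 8 mice. Likeness was searched over the 19263 genes with a probe well above background in every mouse: Trpm6 was most like Tmem86b (r = 0.991), Cldn16 like Cdkn3 (0.989), Slc34a3 like Tm4sf5 (0.977), Slc20a1 like Cd63 (0.980) and Slc20a2 like Fbxl12 (0.980). Slc34a1 was most like Gm32507 (0.987), Umod like Dio3os (0.975), and Egf, after an unnamed transcript, like Cltrn (0.988), an amino acid transport partner of the proximal tubule. Cnnm2, also after an unnamed transcript, was most like Atxn7l2 (0.940) and then Slc9a3r1 (0.934), which encodes the scaffold NHERF1 that holds NaPi-IIa at the membrane. With 8 points and this many genes searched, such values are a description only.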

How the data were processed

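Kidney RNA of 8 mice was labelled with Cy3 from 50 ng of total RNA and read on Agilent arrays, per the labels' protocols. The spot intensity values were made by the authors with Agilent Feature Extraction 12.0.3.1, per the file headers, and are background-subtracted and detrended. The deposited series table holds a linear ratio: from its values, it is the authors' intensity scaled to each array's 75th percentile, then to the median of that probe across arrays (correlation with rescaled scanner values at least 0.999996), so it rises with expression and is centred per probe. Its column medians were 0.977 and 1.03 for mimic, 0.995 and 0.971 for control miRNA, 0.979 and 0.992 for untreated db/db and 1.05 and 1.08 for normal mice.

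Control spots and outlier spots were dropped, which removed 4 probes, and the spots of each probe were averaged. Intensities were divided by the array's 75th percentile, which ran from 335 to 435 units, and put on the log2 scale. A probe was kept where both arrays of any group read it well above background, leaving 33638. Genes were named from the RefSeq table of GRCm38.p6: the accession named 33767 probes, the symbol 9866 and a synonym 310; 12662 retained the name in the file. A gene is represented by its probe with the highest mean level, and its other probes are given beside it.

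All 8 arrays entered a single limma 3.58.1 fit (R 4.3.3) with a mean for each group (4 residual and 2.33 prior degrees of freedom), with Benjamini-Hochberg adjustment over all probes and a threshold of 0.05. The procedure was tested on simulated data. Each group has 2 mice, an exact permutation test of 2 against 2 cannot give a p below 0.333, and that number limits the precision. Replicates are separate mice, per the design text. The members and the lists were chosen with earlier results of these data known. Of each pathway list and comparison, the genes named are up to 6 that passed, by smallest p, and where fewer than 3 passed, up to 3 more called as not passing. Marker lists of cell types and of tubular injury were measured beside them. The alternatives were normexp background correction, quantile normalization, the series table, other filters, 1 probe per gene, the compared groups alone, array weights, a replicate block and leaving out each mouse. The gene most like Cldn19 in pattern is not reported here.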

Additional observations from a re-analysis of the deposited data

How the results depend on the processing

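Of the 6 comparisons, the count of 0 member genes passing held under normexp, quantile normalization, the series table, both other filters, 1 probe per gene, array weights and the replicate block. With the compared groups only, 3 passed between untreated db/db and normal (Slc34a3, Trpm6 and Cldn16). The share of all probes passing in that fit is not given here, so this count cannot be read as particular to the members. Leaving out 1 mouse leaves its group with 1 mouse, and the count of 0 did not hold in every such fit. It held in all of them for control miRNA against normal and against untreated db/db. The replicate numbers of the mice do not pair them (correlations of same-numbered deviations from -0.03 to 0.16), and the block left 0 member genes passing in every comparison. Under normexp the untreated db/db and control miRNA differences of Egf probe A_55_P2733187 from normal turned to -0.0772 and -0.0619; under quantile normalization those of Cnnm2 between untreated db/db and normal and of Umod between mimic and control miRNA turned to -0.0388 and -0.0159; the cause was not tested. Of the pathway genes, whose alternatives were chosen after seeing the data, Cyp24a1 between mimic and normal turned to 0.16 without mimic mouse 1, and the phosphate list had 1 to 5 genes passing between untreated db/db and normal without leaving out a mouse. Leaving out 1 mouse turned the sign of some differences, whose ranges follow. Untreated db/db minus normal: Cnnm2 -0.13 to 0.13. Control miRNA minus normal: Slc34a3 -0.02 to 1.16, Cldn19 -0.26 to 0.56, Cnnm2 -0.22 to 0.0349, Egf probe A_55_P2733187 -0.0659 to 0.18 and A_55_P2736929 -0.16 to 0.0489. Mimic minus normal: Slc34a1 -0.73 to 0.41 (its second probe -0.64 to 0.55), Slc34a3 -0.31 to 1.03, Trpm6 -0.10 to 0.66, Cldn19 -0.85 to 0.0261, Cnnm2 -0.0702 to 0.19 and Egf probe A_55_P2733187 -0.92 to 0.20. Mimic minus untreated db/db, followed for Egf and Cldn19 only: Egf -1.69 to 0.15 and its probe A_55_P2733187 -0.98 to 0.14. In that comparison Slc34a1, Slc34a3, Trpm6 and Cldn16 had differences below 0, but mimic mouse 2 lay above both untreated db/db mice for each. Slc20a1 had a difference above 0, but mimic mouse 2, at 1.67, lay below the untreated db/db mean of 1.83. Control miRNA minus untreated db/db was not followed for single members. Mimic minus control miRNA: Slc34a1 -0.93 to 0.21 (its second probe -1.06 to 0.14), Slc34a3 -0.88 to 0.47 (its probe A_66_P104648 -0.94 to 0.28), Slc20a1 -0.0888 to 0.98, Slc20a2 -0.21 to 0.0894, Trpm6 -0.62 to 0.14, Cldn16 -0.44 to 0.45, Egf -1.62 to 0.21 and its probe A_55_P2733187 -0.98 to 0.14. Trpm6, the dimmest member, lay closest to the lowest signal well above background (-4.77 to -4.33), and 2 mice per group limit every value.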

Other observations

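Podocyte markers, which are no part of the 10 genes, were higher in db/db kidney: all 5 passed between mimic and normal and 3 of 5 each between control miRNA and normal and untreated db/db and normal, with a median difference of 1.37, 1.10 and 1.28. The log2 of their summed level was 5.36 and 5.09 in mimic mice, 5.08 and 4.83 in control miRNA mice, 5.13 and 4.98 in untreated db/db mice and 4.09 and 4.16 in normal mice. The summed level of macrophage markers, 50.5% to 75.7% of it Csf1r, was lower in all 6 db/db mice than in both normal mice. On the log2 scale it was 4.60 and 3.68 in mimic mice, 3.84 and 3.68 in control miRNA mice, 3.58 and 3.65 in untreated db/db mice and 4.86 and 4.70 in normal mice. Of the 7 markers 1 passed, as lower, in each comparison with normal. The median of the 7 did not follow the sum. It was 0.84 and -0.71 in mimic mice, against -0.28 and -0.50 in normal mice. Differences from normal were above 0 for 4 of the 7 in the mimic group, against 0 in control miRNA and 0 in untreated db/db.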
